A study of Mus musculus with 18 samples.

Results

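The genes described here mark the cells of the liver that are not hepatocytes: the bile duct epithelium, the stellate cells with the matrix they make, and the endothelium of the sinusoids and veins. They were chosen by name, as 46 symbols in 3 groups, of which 9 were biliary, 21 stellate and matrix, and 16 endothelial. A symbol counted as measured where the platform annotation held a probe set with that symbol alone, and the brightest such probe set, averaged over the 18 arrays, stood for the gene. By that rule 44 of the 46 were measured, 8 biliary, 20 stellate and matrix and 16 endothelial, among 17097 genes in all. Spp1 was not analysed here, and Tagln was not used because its probe set is assigned to 2 genes.

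Total RNA of mouse liver was profiled on 18 Affymetrix MG-430 PM arrays in 2 models, all from female mice aged 6 to 8 weeks. The first model set 5 samples labelled NPC1L1-Liver-Transgenic against 5 wild-type samples, both C57BL/6. The second compared an ACAT2 antisense oligonucleotide (ASO), with 4 samples, with a control ASO, also with 4, both in C57BL/6N. NPC1L1 is a membrane transporter that takes up free cholesterol, ACAT2 esterifies cholesterol in hepatocytes and enterocytes, and an ASO is a short synthetic nucleic acid strand that leads to the breakdown of the messenger RNA it pairs with. The labels do not give the promoter or the species of the transgene, nor the dose or duration of the ASO. Samples carry a number within their group, but no label says that each came from a different mouse. Every p-value here therefore refers to sample-to-sample spread, part of which may be technical.

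Cholangiocytes line the bile ducts in the portal tracts and are told from hepatocytes by the keratins Krt7 and Krt19, by adhesion and tight junction proteins and by the chloride channel Cftr. Stellate cells lie between the sinusoidal endothelium and the hepatocytes, store vitamin A as retinyl ester in the healthy liver, and turn into matrix-producing, contractile myofibroblasts in injury. Sinusoidal endothelial cells are fenestrated, clear waste molecules from blood through scavenger and Fc receptors, and send Wnt and BMP ligands to the hepatocytes beside them. In bulk tissue such as this, fewer cells of a type and less RNA per cell cannot be told apart.

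The mean log2 value of 12 defining hepatocyte genes lay between 11.55 and 11.80 on all 18 arrays. Array medians ran from 4.61 to 4.65 in the transgenic model and from 4.38 to 4.40 in the ASO model, so no level was compared between the models. The 40% of genes with the lowest means lay below 4.74, a level at which little signal may come from the transcript itself. Mouse Npc1l1 was below it on every array, between 3.64 and 4.16 in wild type and between 3.61 and 3.75 in transgenic liver, and did not check the transgene because its species is not given. Knockdown by the ASO was not checked, since its target transcript was not analysed here. Wild type 2, ACAT2 ASO 1 and control ASO 4 stood farthest from the other arrays of their groups over all genes, and they also had the highest Kupffer cell marker values of their groups.

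Of the 8 biliary genes, 6 had means below that level, namely Krt7, Krt19, Sox9, Cftr, Cldn7 and Anxa13. Krt7 and Krt19 are the filament keratins of duct epithelium. Krt7 ran from 4.29 to 4.65 in the transgenic model and from 3.64 to 4.12 in the ASO model. Krt19 ran from 4.50 to 4.95 over the 10 arrays of the transgenic model, but from 3.99 to 6.85 over the 8 of the ASO model. Epcam, the epithelial adhesion molecule, lay between 6.22 and 6.59 in the first model and between 5.18 and 5.55 in the second. Sox9, the transcription factor of duct cells, lay between 4.49 and 4.85 and between 4.10 and 4.36. Ehf, an ETS-family factor of epithelia, lay between 4.85 and 5.16 and between 4.27 and 4.70. The least bright was Cftr, from 3.09 to 3.37 and from 3.07 to 3.28, near the bottom of the scale. Cldn7, a tight junction claudin, ran from 3.85 to 4.27 in the transgenic model, against 3.78 to 4.90 in the ASO model, and the calcium-dependent membrane binder Anxa13 between 3.63 and 4.23 and between 3.79 and 5.16.

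The stellate and matrix genes spread more from array to array than most. Their median SD within a group was 0.23 in wild type, 0.18 in transgenic, 0.16 in ACAT2 ASO and 0.16 in control ASO liver. Over all genes above the low level the same figure was 0.13, 0.12, 0.11 and 0.11. For the endothelial genes it was 0.17, 0.14, 0.12 and 0.13, and for the biliary genes 0.11, 0.11, 0.09 and 0.17. Krt19 and the smooth muscle actin Acta2 had the widest ranges within a group, 2.55 and 2.53, both among the control ASO arrays. They were followed by the fibrillar collagen Col3a1 with 2.01 among the ACAT2 ASO arrays, the basement membrane collagen Col4a1 with 1.66, and the small proteoglycan Lum with 1.42, both among control ASO arrays. Anxa13 with 1.38 and Cldn7 with 1.05 came next, again among the control ASO arrays, and then Reln with 0.93.

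Promoter sequence is printed for Col3a1, Cldn7 and Reln, the 3 genes with the widest range within a group whose RefSeq entry (assembly GRCm38.p6, an entry was held for 26 of the 44 genes) begins at the first annotated base of the gene. Reln encodes reelin, an extracellular glycoprotein that marks stellate cells in the liver. Each stretch is the 250 bases before the start, read 5′ to 3′ on the strand of the gene, with every match to 1 of 3 short motifs on either strand in capitals.
Col3a1, chr1:45311288-45311537, plus strand: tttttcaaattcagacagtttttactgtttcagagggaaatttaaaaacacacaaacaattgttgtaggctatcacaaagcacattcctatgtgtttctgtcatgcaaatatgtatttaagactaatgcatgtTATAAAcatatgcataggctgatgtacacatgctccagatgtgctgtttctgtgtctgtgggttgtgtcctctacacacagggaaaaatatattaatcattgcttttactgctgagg
Cldn7, chr11:69964529-69964778, plus strand: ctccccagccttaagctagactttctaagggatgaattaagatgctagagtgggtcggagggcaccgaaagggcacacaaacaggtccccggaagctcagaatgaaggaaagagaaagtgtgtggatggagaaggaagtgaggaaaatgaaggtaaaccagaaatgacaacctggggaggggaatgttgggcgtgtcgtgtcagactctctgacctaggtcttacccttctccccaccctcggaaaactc
Reln, chr5:22344706-22344955, minus strand: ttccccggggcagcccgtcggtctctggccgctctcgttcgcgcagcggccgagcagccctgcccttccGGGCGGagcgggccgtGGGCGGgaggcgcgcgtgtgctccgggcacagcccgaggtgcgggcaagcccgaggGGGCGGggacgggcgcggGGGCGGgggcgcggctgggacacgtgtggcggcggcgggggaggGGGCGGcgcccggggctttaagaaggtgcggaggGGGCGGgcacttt
The motifs were TATAAA, the consensus of a TATA box, then CCAAT, and lastly GGGCGG, which Sp1-type factors bind. Matches were counted anywhere in the 250 bases, so a match to TATAAA is not by itself a TATA box. The Col3a1 stretch held 1 TATAAA, from -117 to -112 counted from the start. Reln held GGGCGG 6 times and no other match, and the Cldn7 stretch held none of the 3 motifs. Over all 32544 promoters of the table, 12.3% held TATAAA, 33.8% held CCAAT and 33.0% held GGGCGG in a window of the same length. Of the 26 genes with an entry 2 held TATAAA, 9 held CCAAT and 14 held GGGCGG in at least 1 of their promoters. A gene can have several promoters, as Cldn7 has 2. These counts per gene are therefore not comparable with the shares per promoter.

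Among the collagens, Col3a1 ran from 9.26 to 11.01 in the transgenic model, against 7.37 to 9.39 in the ASO model. The basement membrane collagen Col4a1 reached 8.03 in the first model and ran from 5.66 to 7.85 in the second, and Col4a2 ran from 6.44 to 7.37 and from 5.21 to 5.66. The fibril regulator Col5a1 ran from 5.73 to 6.69 and from 5.56 to 6.01, the fibril-associated Col14a1 from 8.14 to 8.81 and from 7.64 to 8.18. The 2 chains of type I collagen were dim. Col1a1 lay between 4.84 and 5.50 and between 4.11 and 4.30, and the probe set that stands for Col1a2 stayed between 3.09 and 3.35 and between 3.11 and 3.28. The level of Col1a2 is therefore hardly measured here.

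Where a pair of ranges follows, the first is of the transgenic and the second of the ASO model. Of the other stellate and matrix genes, the proteoglycan Dcn was high throughout, at 10.83 to 11.15 and 10.35 to 10.93. Reln had ranges of 8.34 to 9.02 and 8.30 to 9.24, and Rgs5, a regulator of G protein signalling found in pericytes, of 8.46 to 9.23 and 8.58 to 9.14. The muscle-type filament Des read 5.40 to 6.06 and 5.19 to 5.48, and the metalloproteinase inhibitor Timp2 read 6.98 to 7.64 and 6.03 to 6.77. Timp1, a second inhibitor of that family that is low in healthy liver, read 4.00 to 4.79 and 4.33 to 4.79. The collagen cross-linking enzyme Lox read 3.78 to 4.10 and 3.64 to 3.92, and Hgf, the hepatocyte growth factor that stellate cells release, 4.15 to 4.55 and 4.90 to 5.38. Acta2, the actin of smooth muscle and of activated stellate cells, ran from 6.54 to 8.11 in the transgenic and from 6.35 to 8.88 in the ASO model, and Lum from 7.25 to 8.32 and from 6.20 to 7.69. Pdgfrb ran from 5.15 to 5.45 and from 4.45 to 4.88, and Lrat from 7.89 to 8.41 and from 7.36 to 7.59. Pecam1, from 4.82 to 5.26 and from 4.06 to 4.52, was the only endothelial gene below the low level of 4.74 on average.

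The other endothelial genes had means above it. The lectin Clec4g read 9.97 to 10.30 and 9.75 to 9.94, and the Fc receptor Fcgr2b 9.42 to 10.06 and 9.34 to 9.64. Of the scavenger receptors, Stab1 read 7.36 to 7.84 and 6.79 to 7.14, and Stab2 7.36 to 7.87 and 7.96 to 8.37. Kdr, a receptor for VEGF, read 8.03 to 8.24 and 7.48 to 7.82, Bmp2 8.02 to 8.56 and 7.72 to 8.04, and Gpr182 7.45 to 7.93 and 6.91 to 7.13. The endothelial cadherin Cdh5 read 5.90 to 6.59 and 5.67 to 6.35, the nuclease Dnase1l3 6.61 to 6.99 and 6.27 to 6.53, and Oit3, a secreted protein of sinusoidal cells, 6.93 to 7.53 and 7.13 to 7.48. Tek read 5.77 to 6.38 and 5.94 to 6.30, Eng 7.60 to 7.94 and 7.18 to 7.48, and Wnt2 5.42 to 6.09 and 5.21 to 5.64. Rspo3, which amplifies Wnt signals around the central vein, read 5.40 to 5.92 and 5.99 to 6.30.

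**Figure D1:**
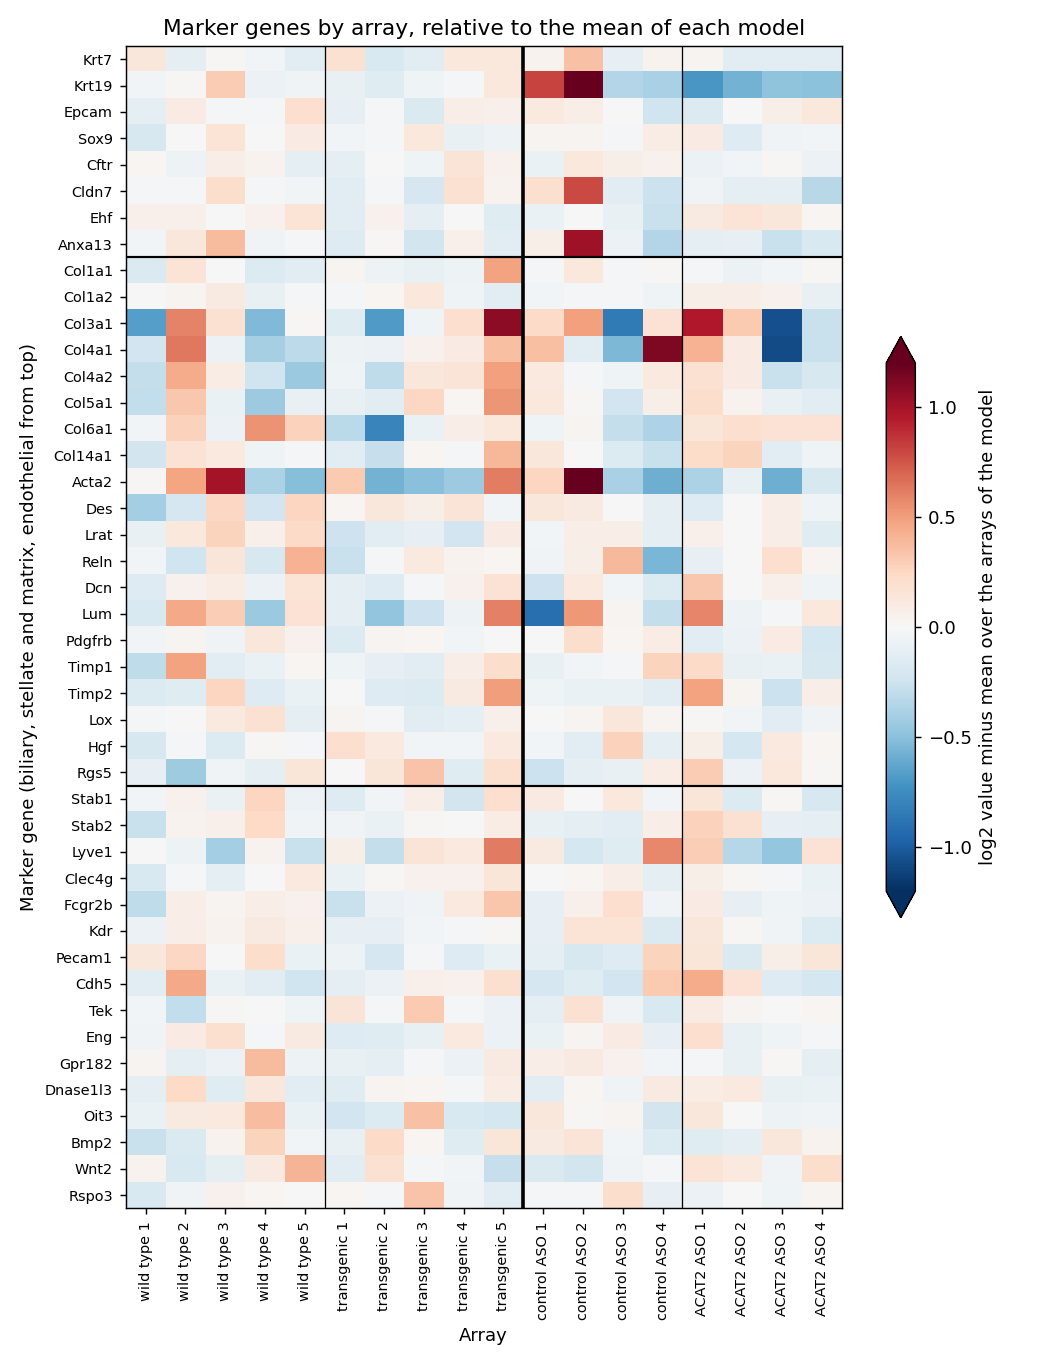
Values of the 44 marker genes (rows, in the order biliary, stellate and matrix, endothelial) on the 18 arrays (columns), as the log2 value minus the mean over the arrays of the same model, with colours ending at 1.2 above and below. Krt19, Cldn7, Anxa13 and Acta2 stand out on control ASO 2, and Col3a1, Col1a1 and Lum on transgenic 5.

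In transgenic liver each of the 3 groups held genes on both sides of 0, with a median close to it. No marker gene passed the test (0 of 44 at a limma adjusted p under 0.05, against 0.228% of all genes), and 4 had an unadjusted p under 0.05, against 10.9% of all genes. All 4 were lower in transgenic liver, namely Lrat, Col6a1, Ehf and Pecam1. No gene had groups that did not overlap, against 2.22% of all genes. The difference between transgenic and wild type was above 0 for 20 of the 44 and below 0 for 24, with a median of -0.02 beside 0.0058 over all genes. By group, 2 of 8 biliary, 11 of 20 stellate and matrix and 7 of 16 endothelial genes were above 0, with medians of -0.05, 0.0031 and -0.0070. Without wild type 3 the biliary median was -0.0018, with 3 of 8 above 0.

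**Figure D2:**
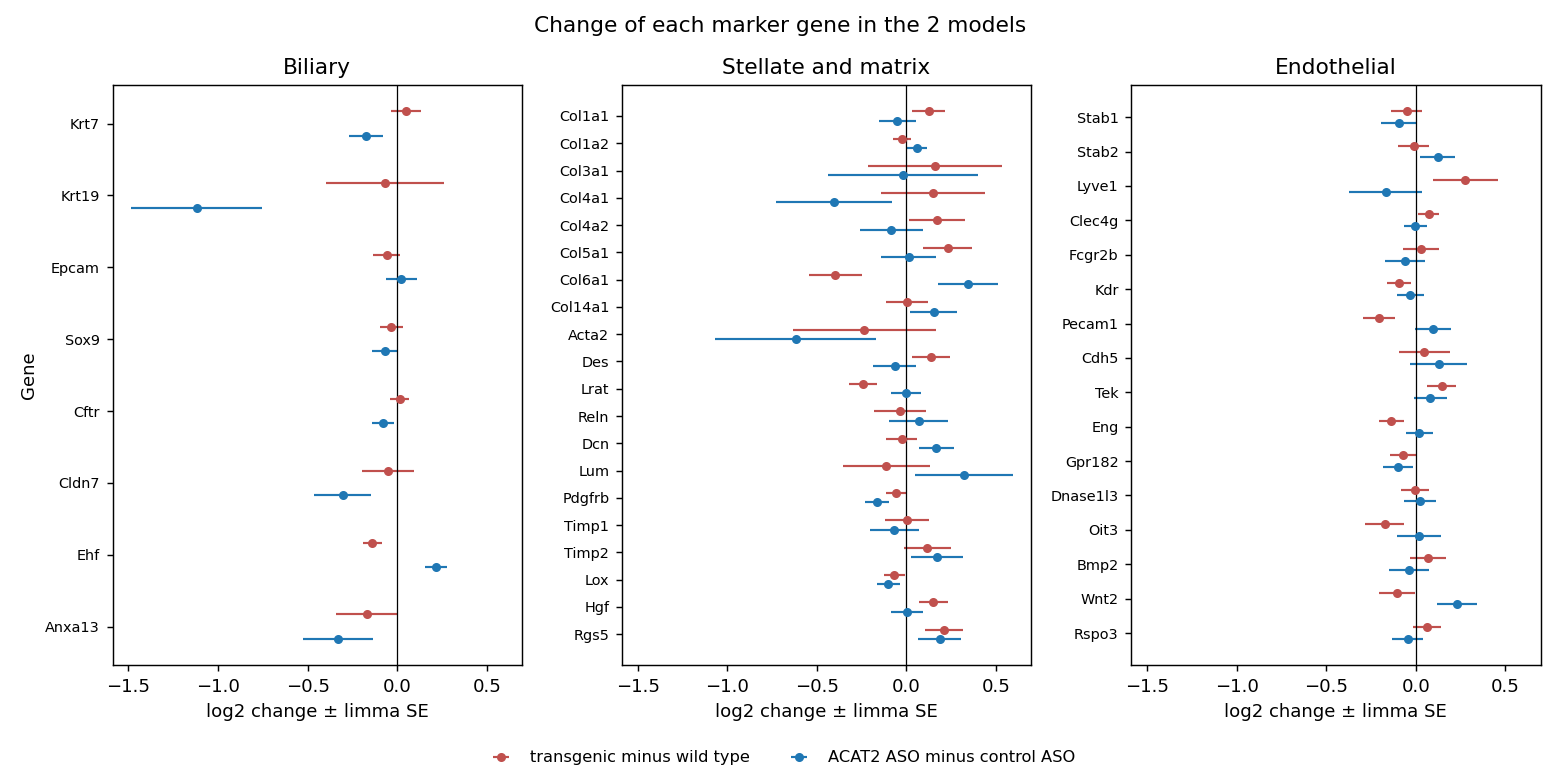
Difference in log2 value ± limma standard error for each marker gene in 3 panels, transgenic minus wild type in red and ACAT2 ASO minus control ASO in blue. Most points lie within 0.3 of 0, and Krt19 at -1.12 in the ASO model is farthest from it.

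Lrat, the enzyme that esterifies retinol for storage and a defining gene of quiescent stellate cells, had the smallest p of all the marker genes in the transgenic model. Its log2 values were 8.06, 8.26, 8.41, 8.20 and 8.37 on the wild-type arrays, against 7.89, 8.01, 8.04, 7.91 and 8.24 on the transgenic ones. All but 1 of the transgenic arrays lay below the lowest wild-type array, and the groups overlapped through transgenic 5. The difference was -0.24 ± 0.08 (limma SE, n = 5 in each group, adjusted p = 0.228). The second probe set of Lrat gave -0.26 ± 0.08 (limma adjusted p over all probe sets = 0.200), with wild-type values of 6.80, 7.01, 7.19, 6.97 and 7.09 and transgenic values of 6.68, 6.82, 6.63, 6.71 and 6.89. Both probe sets thus placed Lrat lower in transgenic liver by a similar amount, short of the threshold over all genes.

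Col6a1, a chain of the microfibrillar collagen VI, had the largest difference in size. It read 6.10, 6.41, 6.06, 6.67 and 6.41 on the wild-type arrays, against 5.81, 5.34, 6.05, 6.21 and 6.26 on the transgenic ones, a difference of -0.40 ± 0.15 (limma SE, adjusted p = 0.327). Transgenic 2 was the lowest, and without it the difference was -0.25 (limma adjusted p = 0.514). Rgs5 read 8.79, 8.46, 8.85, 8.79 and 9.03 on the wild-type arrays, against 8.89, 9.03, 9.23, 8.74 and 9.08 on the transgenic ones, a difference of 0.21 ± 0.11 (limma adjusted p = 0.498). Its other 3 probe sets gave 0.08, 0.11 and 0.01, all smaller.

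Ehf led the biliary genes in the transgenic model, with 5.05, 5.06, 5.00, 5.04 and 5.16 on the wild-type arrays, against 4.86, 5.05, 4.87, 4.99 and 4.85 on the transgenic ones. Transgenic 2 lay within the wild-type range and the other 4 below it. The difference was -0.14 ± 0.05 (limma SE, adjusted p = 0.349), and its other 3 probe sets, all dim, gave -0.12, -0.08 and 0.06. Anxa13 differed by -0.17 ± 0.17 (limma adjusted p = 0.804) and Epcam by -0.06 ± 0.08 (limma adjusted p = 0.856). The second probe set of Epcam gave 0.07, opposite in sign. Of the 2 duct keratins, Krt19 differed by -0.07 ± 0.33 and Krt7 by 0.05 ± 0.09 (limma SE). The fit gave each gene 1 spread shared by the 4 groups, so the control ASO arrays widened the errors of Krt19 and Anxa13. The SD of Krt19 was 0.153 in wild type, 0.105 in transgenic and 1.207 in control ASO liver. For Anxa13 it was 0.178, 0.120 and 0.596.

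Pecam1, an adhesion molecule at endothelial cell contacts, led the endothelial genes. It read 5.16, 5.26, 5.01, 5.23 and 4.94 on the wild-type arrays, against 4.96, 4.82, 5.00, 4.86 and 4.93 on the transgenic ones. The ranges met between 4.94 and 5.00, and the difference was -0.20 ± 0.09 (limma SE, adjusted p = 0.408). Eng, the endothelial co-receptor for TGF-beta family ligands, differed by -0.14 ± 0.07 (limma adjusted p = 0.488), but its second probe set gave 0.05. Tek, the angiopoietin receptor, differed by 0.15 ± 0.08 (limma adjusted p = 0.549). Lyve1, the hyaluronan receptor of sinusoidal cells, read 8.10, 8.04, 7.70, 8.14 and 7.83 on the wild-type arrays, against 8.17, 7.82, 8.26, 8.22 and 8.72 on the transgenic ones, a difference of 0.28 ± 0.18 (limma SE). The second probe set of Lyve1 gave 0.32 ± 0.15, and neither passed the test.

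Col3a1 and other matrix genes varied more from array to array than between the group means. Transgenic 5 was the highest of the 10 arrays for 8 of the 20 stellate and matrix genes, against 8.0% of all genes. On that array Col3a1 read 11.01, where the other transgenic arrays read 9.80, 9.26, 9.89 and 10.14 and the wild-type arrays 9.28, 10.53, 10.13, 9.41 and 9.95. Col1a1 read 5.50 there and at most 5.18 on the other 9 arrays, and Lum read 8.32 and at most 8.17. Wild type 2 was also high for several of them, with Col3a1 at 10.53, Col4a1 at 8.03 and Lum at 8.17. Without transgenic 5 the median difference of the 20 genes was -0.05 in place of 0.0031, and 9 in place of 11 were above 0.

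In the ASO model, too, each group held genes on both sides of 0, and several biliary genes were spread widely among the control ASO arrays. Again no marker gene passed the test (0 of 44 at a limma adjusted p under 0.05, against 0.597% of all genes). An unadjusted p under 0.05 was reached by 3 genes, against 13.3% of all genes: Ehf, higher with ACAT2 ASO, and Krt19 and Pdgfrb, lower. The groups did not overlap for 3 genes, Ehf and Col6a1 higher and Krt19 lower, against 9.05% of all genes. The difference was above 0 for 20 of the 44 and below 0 for 24, with a median of -0.01 beside -0.00056 over all genes. By group, 2 of 8 biliary, 10 of 20 stellate and matrix and 8 of 16 endothelial genes were above 0, with medians of -0.13, 0.000072 and 0.0074. No test of a group was made.

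Krt19 had the largest difference of all 44 genes. The control ASO arrays 1 to 4 read 5.50, 6.85, 4.33 and 4.30, and the ACAT2 ASO arrays 3.99, 4.12, 4.20 and 4.19. Every ACAT2 ASO array lay below every control ASO array, with control ASO 3 and 4 just above the treated group and control ASO 1 and 2 far above it. The means were 5.25 ± 1.21 and 4.13 ± 0.10 (SD, n = 4 each), a difference of -1.12 ± 0.37 (limma SE), with an adjusted p of 0.170. All 4 ACAT2 ASO values and 2 of the control values lay below the low level of 4.74. Without control ASO 2 it was -0.58 ± 0.20 (limma adjusted p = 0.264).

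The same array was high for several other biliary genes. Control ASO 2 was the highest of the 8 arrays for 5 of the 8 biliary genes, against 11.0% of all genes. On it Cldn7 read 4.90, while the other control ASO arrays read 4.30, 3.98 and 3.85 and the ACAT2 ASO arrays 4.06, 3.99, 3.99 and 3.78. Anxa13 read 5.16 beside 4.21, 4.07 and 3.79 in the other controls and 4.03, 4.04, 3.87 and 3.96 with ACAT2 ASO. Krt7 read 4.12 beside 3.81, 3.67 and 3.81 in the other controls and 3.80, 3.64, 3.64 and 3.64 with ACAT2 ASO. The second probe set of Epcam read 5.97 on control ASO 2, 5.43, 5.10 and 4.98 on the other controls and 4.88, 5.04, 4.79 and 5.05 with ACAT2 ASO. The brighter probe set, which stands for Epcam, read 5.53, 5.50, 5.42 and 5.18 in the controls and between 5.26 and 5.55 with ACAT2 ASO, and did not set control ASO 2 apart. For Cldn7, Anxa13, Krt7 and the second probe set of Epcam control ASO 1 was next or close to it, and controls 3 and 4 lay at or near the ACAT2 ASO values.

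Acta2, Myh11, Cnn1 and Muc1 were highest on the same array, and Des, at 5.46 there and 5.48 on control ASO 1, was not. Acta2 read 7.19, 8.88, 6.55 and 6.35 on control ASO 1 to 4 and 6.56, 6.85, 6.35 and 6.75 with ACAT2 ASO, a difference of -0.62 ± 0.45 (limma SE), where its second, dim probe set gave 0.08. The muscle myosin Myh11 read 4.42, 5.32, 4.09 and 3.92 in the controls and between 4.00 and 4.06 with ACAT2 ASO, and the actin binder Cnn1 read 3.85, 4.30, 3.58 and 3.55 in the controls and between 3.33 and 3.55 with ACAT2 ASO. The epithelial mucin Muc1 read 4.73, 5.43, 4.31 and 4.16 in the controls and between 4.01 and 4.27 with ACAT2 ASO. Myh11 and Muc1 were picked after their values were seen. Over whole lists, control ASO 2 was the highest array for 3 of the 20 stellate and matrix genes, against 11.0% of all genes. In the longer stellate and matrix list given below, it was the highest for 12 of 33. Without control ASO 2 the differences became -0.09 in place of -0.30 for Cldn7, -0.05 in place of -0.33 for Anxa13, -0.09 in place of -0.17 for Krt7 and -0.07 in place of -0.62 for Acta2, and the biliary median -0.06 in place of -0.13.

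Part of this combination was seen once in the transgenic model. Wild type 3 was the highest of the 10 arrays for 4 of the 8 biliary genes, against 10.1% of all genes, with Krt19 at 4.95, Cldn7 at 4.27 and Anxa13 at 4.23. It was also the highest for Acta2, at 8.11, Myh11, at 5.06, and Cnn1, at 4.73. It was not the highest for Krt7, at 4.48 against 4.65 on transgenic 1. Nor was it for the second probe set of Epcam, at 5.21 against 5.37 on transgenic 5. Whether the share of duct tissue differed on these arrays was not tested.

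**Figure D3:**
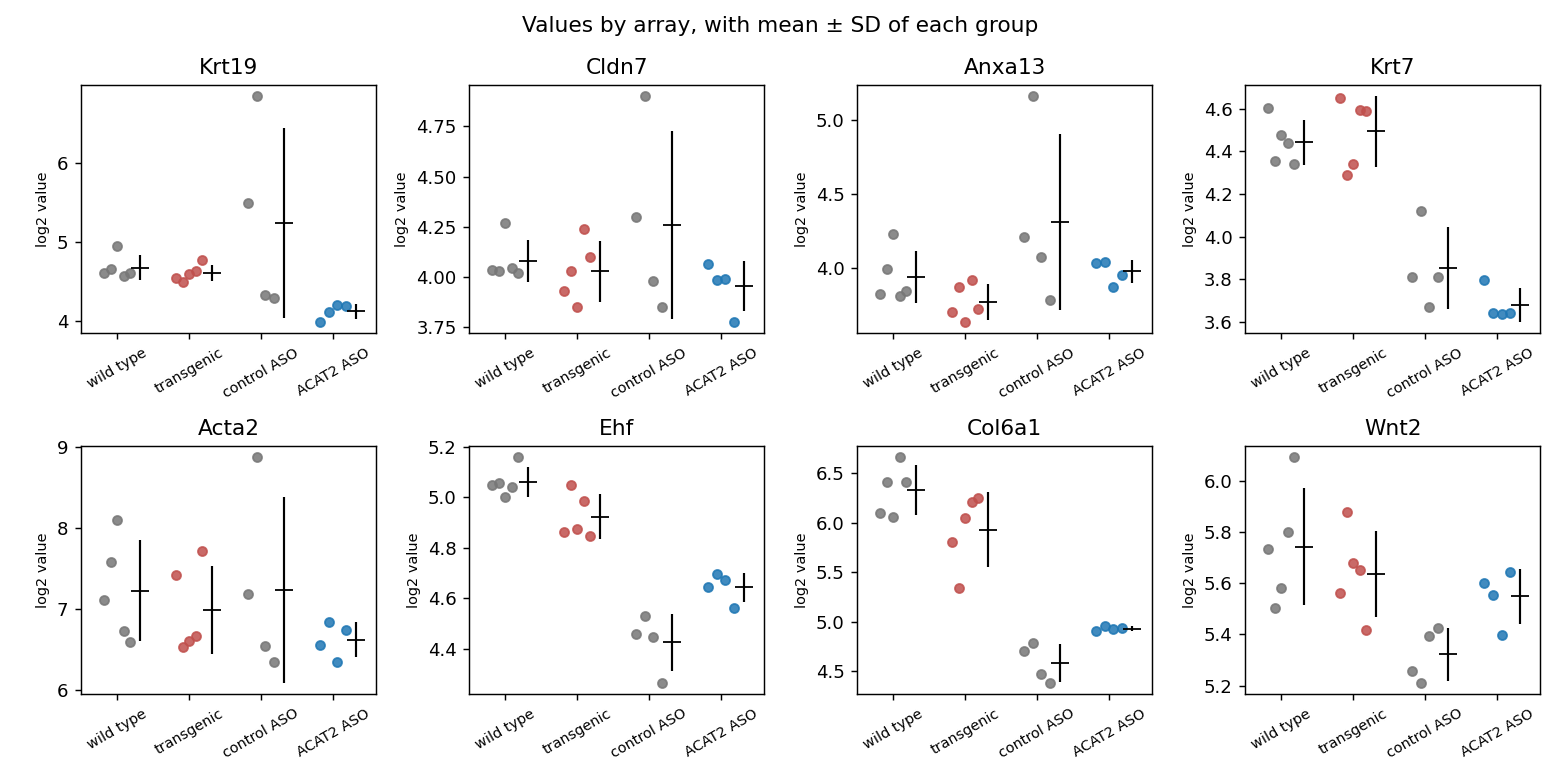
Log2 values of 8 marker genes on each array by group (points) with the mean ± SD beside them, each panel with its own axis. Among the arrays of the ASO model, control ASO 2 is the top point for Krt19, Cldn7, Anxa13, Krt7 and Acta2. Ehf and Col6a1 have groups that do not overlap in that model.

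The difference of Ehf in the ASO model had the opposite sign to that of the keratins. It read 4.46, 4.53, 4.45 and 4.27 in the controls and 4.64, 4.70, 4.67 and 4.56 with ACAT2 ASO, a difference of 0.22 ± 0.06 (limma SE, n = 4 in each group, adjusted p = 0.111). The groups were narrow and only just apart, and control ASO 2 was not exceptional for this gene. All 4 probe sets of Ehf, this one included, lay below the low level of 4.74 on all 8 arrays of the ASO model, and the other 3 gave -0.07, 0.03 and -0.13. Cldn7 differed by -0.30 ± 0.16 (limma adjusted p = 0.432). The second probe set of Epcam gave -0.43 ± 0.18 where the first gave 0.02 ± 0.09, and the 2 other probe sets of Sox9 gave -0.18 and -0.16 where the first gave -0.07 (limma SE).

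Among the stellate and matrix genes Pdgfrb, the receptor through which PDGF drives stellate cell growth, had the smallest p in the ASO model. It read 4.66, 4.88, 4.69 and 4.75 in the controls and 4.53, 4.59, 4.76 and 4.45 with ACAT2 ASO, a difference of -0.16 ± 0.07 (limma SE, adjusted p = 0.305). ACAT2 ASO 3 lay within the control range and the other 3 below it. Col6a1 read 4.70, 4.79, 4.47 and 4.38 in the controls and 4.90, 4.96, 4.93 and 4.93 with ACAT2 ASO, with a difference of 0.35 ± 0.17 (limma adjusted p = 0.387). Its ACAT2 ASO values had a range of 0.05, against 0.41 in the controls. In this model most Pdgfrb values and most Col6a1 control values lay below the low level of 4.74. Dcn differed by 0.17 ± 0.10 (limma adjusted p = 0.50), and by 0.08 to 0.23 with 1 array left out. Lrat differed by -0.0034 ± 0.09 on its first probe set and by -0.27 ± 0.08 on its second (limma adjusted p over all probe sets = 0.167). The probe sets of Lrat thus gave unlike values in this model. Des gave -0.06 ± 0.12 on its first and 0.25 ± 0.07 on its second probe set, which was below the low level (limma SE).

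Col3a1 and Col4a1 spread widely in both ASO groups. Col3a1 read 8.65, 8.92, 7.58 and 8.60 in the controls and 9.39, 8.74, 7.37 and 8.16 with ACAT2 ASO. Col4a1 read 7.08, 6.59, 6.19 and 7.85 in the controls and 7.14, 6.83, 5.66 and 6.46 with ACAT2 ASO, a difference of -0.41 ± 0.33 (limma SE), where its second probe set gave -0.06. Array 3 of either group was the lowest for both genes. ACAT2 ASO 1 was the highest of the 8 arrays for 7 of the 20 stellate and matrix genes and for 5 of the 16 endothelial genes, against 14.1% of all genes.

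Wnt2, a ligand that central vein and sinusoidal endothelium sends to hepatocytes, led the endothelial genes in the ASO model. It read 5.26, 5.21, 5.39 and 5.42 in the controls and 5.60, 5.56, 5.40 and 5.64 with ACAT2 ASO. Only ACAT2 ASO 3 lay within the control range. The difference was 0.23 ± 0.11 (limma SE, adjusted p = 0.390). Stab2 differed by 0.12 ± 0.10 (limma adjusted p = 0.651), or by 0.05 to 0.18 with 1 array left out, and Gpr182 by -0.10 ± 0.08 (limma adjusted p = 0.667). Rspo3, the second Wnt pathway ligand of the group, differed by -0.05 ± 0.09 (0.06 on its dim second probe set), Bmp2 by -0.04 ± 0.11 and Kdr by -0.03 ± 0.08 (limma SE). Control ASO 4 was the lowest of the 8 arrays for 7 of the 16 endothelial genes, against 16.4% of all genes.

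The models were then set against each other by testing the difference of the 2 effects, transgenic minus wild type less ACAT2 ASO minus control ASO. The models share no arrays. A single marker gene passed, Ehf (1 of 44 at a limma adjusted p under 0.05, against 1.07% of all genes), and 5 had an unadjusted p under 0.05, against 15.4% of all genes. With so few genes neither count stands clear of the share of all genes. For Ehf the difference of effects was -0.36 ± 0.08 (limma SE, adjusted p = 0.0452), from -0.14 in the transgenic and 0.22 in the ASO model, in which all its values lay below the low level. This call was kept under 4 of 27 alternative settings and lost under the other 23, with limma adjusted p-values from 0.0506 to 0.461. The other 3 probe sets gave -0.04, -0.12 and 0.19, and over the mean of the 4 probe sets the value was -0.08.

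By p, Col6a1, Pecam1, Wnt2 and Krt19 followed. For Col6a1 the difference of effects was -0.74 ± 0.22 (limma SE, adjusted p = 0.115), lower in transgenic liver and higher with ACAT2 ASO. Most of its control ASO values lay below the low level. Pecam1 gave -0.30 ± 0.13 (limma adjusted p = 0.288) and Wnt2 -0.33 ± 0.15 (limma adjusted p = 0.291). For Krt19 it was 1.05 ± 0.49 (limma adjusted p = 0.317), with the wide spread of the control ASO arrays already given. Krt7 gave 0.22 ± 0.13, Lrat -0.24 ± 0.11, Dcn -0.19 ± 0.13 and Lyve1 0.45 ± 0.27 (limma SE), with adjusted p-values of 0.436, 0.332, 0.522 and 0.463. The second probe set of Lrat gave 0.00082, from -0.26 and -0.27 in the 2 models, and that of Lyve1 gave 0.51 ± 0.22.

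Further genes linked to the same cells were read from 3 longer lists. The mean of the further biliary genes in wild type was 6.83, beside 4.57 for the 8 biliary genes. Signal from hepatocytes or other cells cannot be set apart in bulk liver, so these genes are not readings of duct cells alone. No gene of these lists passed the test in either model or in the difference of effects. In the transgenic model 9 of 17 further biliary, 17 of 33 further stellate and matrix and 16 of 30 further endothelial genes were above 0. An unadjusted limma p under 0.05 was reached by 2, 2 and 4 of them, against 10.9% of all genes. Transgenic 5 was the highest of the 10 arrays for 17 of the 33, against 8.0% of all genes, and without it 9 of the 33 were above 0, with a median of -0.06. The doublecortin-domain gene Dcdc2a differed by -0.18 ± 0.04 (limma adjusted p = 0.0852), with 3.34 ± 0.06 on the wild-type arrays, against 3.16 ± 0.06 in transgenic liver (SD, n = 5 each), near the bottom of the scale. The adhesion molecule Alcam differed by -0.29 ± 0.13 (limma adjusted p = 0.434). The basement membrane collagen Col15a1 read 5.36, 5.49, 5.05, 5.45 and 5.47 on the wild-type arrays, against 5.49, 5.62, 5.74, 5.62 and 5.69 on the transgenic ones, a difference of 0.27 ± 0.07 (limma adjusted p = 0.164). Col12a1 differed by 0.13 ± 0.04 (limma adjusted p = 0.202). Of the endothelial genes, the secreted factor Egfl7 differed by 0.19 ± 0.06 (limma adjusted p = 0.197; 0.13 and 0.05 on its other probe sets) and the tight junction gene Cldn5 by -0.28 ± 0.10 (limma adjusted p = 0.318).

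In the ASO model 2 of 17 further biliary genes were above 0 and 15 below, with a median of -0.15. Control ASO 2 was the highest array for 8 of the 17. Without it 6 were above 0 and the median was -0.09. Tm4sf4, a membrane protein of the tetraspanin-like family, read 9.63, 9.67, 9.59 and 9.46 in the controls and 9.28, 9.45, 9.20 and 9.30 with ACAT2 ASO, a difference of -0.28 ± 0.09 (limma adjusted p = 0.157). The claudin Cldn3 read 8.31, 8.33, 8.40 and 8.15 in the controls and 7.88, 8.32, 7.92 and 7.76 with ACAT2 ASO, a difference of -0.33 ± 0.12 (limma adjusted p = 0.225). These 2 genes are bright, and control ASO 2 was not far from the other controls for either of them. In the longer stellate and matrix list 13 of 33 genes were above 0, with Cnn1 at -0.35 ± 0.16 (limma adjusted p = 0.327) and the filament gene Nes at -0.14 ± 0.07 (limma adjusted p = 0.413). In the longer endothelial list 14 of 30 were above 0, with the stem cell factor receptor Kit at 0.23 ± 0.09 (limma adjusted p = 0.292) and the clotting factor Vwf at -0.24 ± 0.14 (limma adjusted p = 0.479), or -0.33 to -0.10 with 1 array left out.

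For the difference of effects the 2 genes with the smallest p of each list were Dcdc2a (-0.19 ± 0.06) and the anion exchanger Slc4a2 (0.23 ± 0.14), Col15a1 (0.30 ± 0.11) and the glial filament gene Gfap (-0.21 ± 0.09), and Sox17 (0.29 ± 0.11), a factor of arterial endothelium, and Egfl7 (0.20 ± 0.08), each with the limma SE. Their limma adjusted p-values ran from 0.137 for Dcdc2a to 0.469 for Slc4a2. The 2 other probe sets of Gfap gave 0.02 and -0.03.

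**Figure D4:**
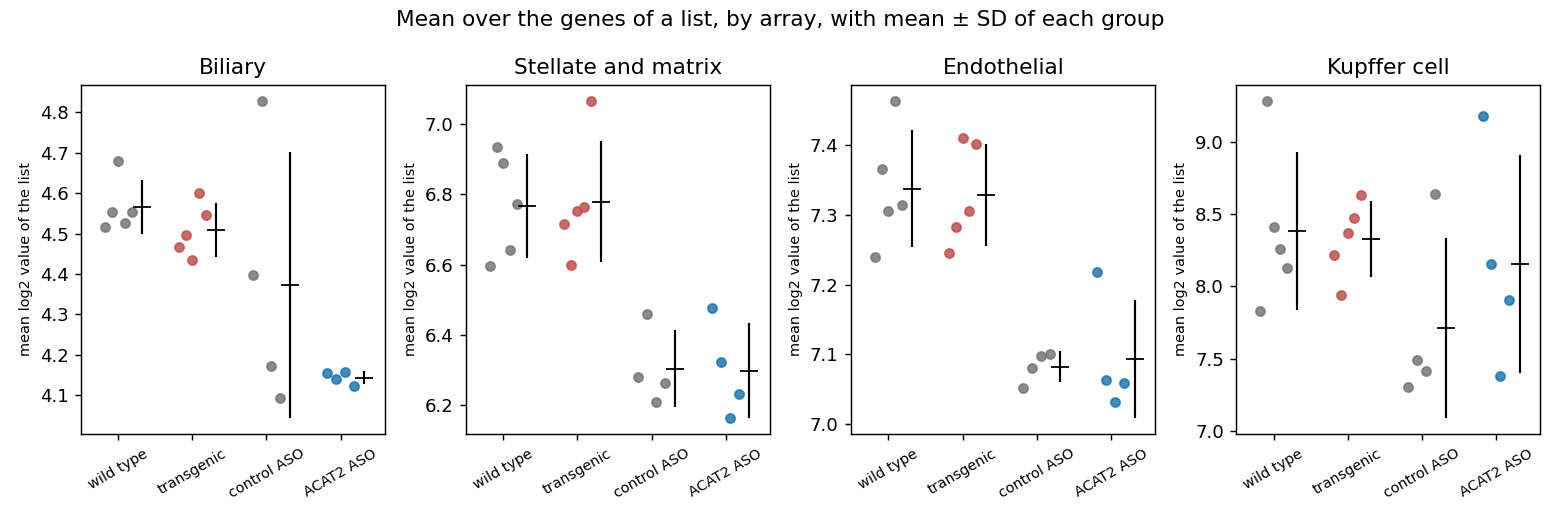
Mean log2 value over the genes of a list on each array (points) by group, with the group mean ± SD, for the 8 biliary, 20 stellate and matrix, 16 endothelial and 12 Kupffer cell genes. The biliary mean runs from 4.09 to 4.83 among control ASO arrays and from 4.12 to 4.16 with ACAT2 ASO, and the Kupffer cell mean is highest on wild type 2, ACAT2 ASO 1 and control ASO 4.

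The biliary mean over its 8 genes was 4.40, 4.83, 4.17 and 4.09 on control ASO 1 to 4 and 4.15, 4.14, 4.16 and 4.12 with ACAT2 ASO. So the spread lay in the controls, with 2 arrays above and 2 at the level of the treated group. The endothelial mean was 7.05, 7.08, 7.10 and 7.10 in the controls and 7.22, 7.06, 7.03 and 7.06 with ACAT2 ASO, and ACAT2 ASO 1 lay apart. The stellate and matrix mean ran from 6.21 to 6.46 in the controls and from 6.16 to 6.48 with ACAT2 ASO.

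Signalling partners of the marker genes, 27 ligands, receptors, mediators and targets of the VEGF, angiopoietin, PDGF, TGF-beta, BMP, HGF, Notch and Wnt pathways, were measured too. None passed the limma test in either model, and 12 of 27 were above 0 in each. The unadjusted limma p was under 0.05 for 2 and 1 of them, against 10.9% and 13.3% of all genes. In the transgenic model the growth factor Vegfb differed by -0.25 ± 0.10 (limma adjusted p = 0.352) and the BMP receptor Bmpr2 by 0.12 ± 0.05 (limma adjusted p = 0.372), and the other probe set of Bmpr2, below the low level, gave -0.02. In the ASO model Tgfb3 differed by -0.15 ± 0.07 (limma adjusted p = 0.337) and the receptor Notch2 by -0.13 ± 0.06 (limma adjusted p = 0.415). In the difference of effects Notch2 gave 0.22 ± 0.09 (limma adjusted p = 0.239) and the mediator Smad4 -0.24 ± 0.11 (limma adjusted p = 0.313), with -0.08 and -0.24 on the other probe sets of Smad4.

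Endothelial Wnt2 and Rspo3 act on hepatocytes around the central vein, and 14 genes of those hepatocytes or of the Wnt pathway were measured. None passed the test, with 4 of 14 above 0 in transgenic and 11 of 14 above 0 in ACAT2 ASO liver. Without transgenic 5 the first count was 7 of 14. Control ASO 4 was the lowest of the 8 arrays for 8 of the 14, against 16.4% of all genes, and without it 10 of 14 were above 0 in the ASO model. Rhbg, an ammonium transporter, read 5.12, 5.04, 5.15, 5.30 and 4.98 on the wild-type arrays, against 5.43, 5.43, 5.64, 5.66 and 5.96 on the transgenic ones, without overlap, a difference of 0.51 ± 0.12 (limma adjusted p = 0.0873). Lect2 differed by 0.23 ± 0.09 (limma adjusted p = 0.315). In the ASO model the glutamate transporter Slc1a2 read 6.86, 7.19, 7.21 and 7.31 in the controls and 6.56, 6.73, 6.60 and 6.62 with ACAT2 ASO, also without overlap, a difference of -0.52 ± 0.12 (limma adjusted p = 0.0563). The dim second probe set of Slc1a2 gave -0.08. The Wnt receptor ligase Znrf3 differed by 0.37 ± 0.15 (limma adjusted p = 0.300) and by 0.18 on its dim second probe set. The difference of effects was 0.73 ± 0.18 for Rhbg (limma adjusted p = 0.0555) and 0.57 ± 0.16 for Slc1a2 (limma adjusted p = 0.0900; 0.02 on the second probe set), the smallest p-values of this list.

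Bmp2 drives hepcidin and the Id genes in hepatocytes, and 7 such genes were measured. In each model 1 of 7 was above 0, with medians of -0.21 and -0.19, and none reached an unadjusted limma p of 0.05. Wild type 1 was the highest of its model for 5 of the 7, against 8.0% of all genes, and control ASO 3 for 6 of the 7, against 1794 of all 17097 genes. The median of the ASO model was -0.06 without control ASO 2 and -0.33 without control ASO 4. The mean of the list was 9.63, 9.33, 9.12, 8.93 and 9.01 on the wild-type arrays and 8.76 to 9.32 on the transgenic ones. In the ASO model it was 8.67, 9.28, 9.47 and 8.54 in the controls and 8.65 to 9.16 with ACAT2 ASO. How far the medians rest on wild type 1 and control ASO 3 was not tested. Id2 differed by -0.47 ± 0.24 (limma adjusted p = 0.503) and Hamp2 by -0.41 ± 0.26 (limma adjusted p = 0.614) in the transgenic model. The other probe sets of Id2 gave -0.41 and -0.23, and the dim second probe set of Hamp2 gave -0.01. In the ASO model Id3 differed by -0.30 ± 0.25 (limma adjusted p = 0.680) and Id2 by -0.29 ± 0.27 (limma adjusted p = 0.712), where leaving out 1 array gave -0.49 to -0.0068 for Id2. In the difference of effects Id1 gave 0.34 ± 0.48 and the inhibitor Smad6 -0.16 ± 0.26, with limma adjusted p-values of 0.799 and 0.839. Bmp2 itself differed by 0.07 ± 0.10 and -0.04 ± 0.11 (limma SE). These genes spread widely within groups, with a median SD of 0.53 among control ASO arrays.

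Markers of other cells were read on the same arrays. In the ASO model all 12 Kupffer cell genes were above 0, with a median of 0.42. Of the 12 genes 2 had an unadjusted limma p under 0.05, against 13.3% of all genes, and none passed the adjusted test. Their mean was 7.31, 7.49, 7.41 and 8.64 in the controls and 9.17, 8.15, 7.38 and 7.91 with ACAT2 ASO, so the groups overlapped. ACAT2 ASO 1 was the highest array for 11 of the 12. Without it 8 of 12 were above 0 and the median was 0.04. Without control ASO 4 all 12 were above 0, with a median of 0.65, and without control ASO 2 the median was 0.28. In the transgenic model 6 of 12 were above 0, with a median of 0.02, and with transgenic 5 left out 4 of 12 were, with a median of -0.06. ACAT2 ASO 1 was also the array with the highest endothelial mean, and the part of these cells in the marker values was not tested. Without wild type 2, ACAT2 ASO 1 and control ASO 4 the median difference of the marker groups was -0.05, 0.07 and 0.01 in the transgenic model and -0.16, -0.06 and -0.06 in the ASO model, and still no marker gene passed the limma test in either model. The Kupffer cell genes then had a median of 0.22 in the transgenic and 0.38 in the ASO model. The mean over 5 genes of the mesothelium, which covers the liver surface, lay between 4.19 and 4.63 on all arrays, and that over 7 pancreatic acinar genes between 4.36 and 5.15, both near the low level.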

How the data were processed

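Per the submitters' processing notes, the authors deposited log2 values summarised per probe set by RMA. Its software version is not given in the sources used here. Array medians differ between the models, so it may have been applied to each by itself. From 45141 probe sets 104 controls were removed. The platform annotation named 1 gene for 28898 of the rest, more than 1 for 551 and no gene for 15588. By Entrez number, 28689 of those with 1 gene were found in RefSeq's table (GRCm38.p6). Low values were not filtered.

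Differences were tested with limma 3.58.1 in R 4.3.3 (lmFit and eBayes) in 1 fit of 4 group means over the 18 arrays, two-sided, with Benjamini-Hochberg adjustment over all 17097 genes and a call at an adjusted p under 0.05. The 4 groups shared 1 estimate of the spread of each gene, so arrays of either model entered the errors of the other. The procedure was tested on simulated data. Groups came from the sample titles, and their number of arrays limits the precision.

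The marker genes and all lists were chosen with earlier results of these data known. Named with a change, standard error and adjusted p were, per comparison, the 3 genes of each marker group with the smallest p, called genes, marker genes with an unadjusted p under 0.05 whose groups did not overlap, and the 2 genes of each further list with the smallest p. Other probe sets are given where they differed in sign or lay under 0.5 of the change. Alternatives were another normalization, centring, filter, probe set rule or variance model, arrays left out, a replicate block and a stricter threshold.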

Additional observations from a re-analysis of the deposited data

Results flagged for a closer look

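In 188 sets of 4 or 5 arrays (44 genes and 3 group means in 4 groups), 14 had a single array far from the rest, or 7.4%. An array was judged by its gap to the nearest other array over the range of the set. About 1 in 20 would be flagged among independent sets. The sets here share arrays, and the means share genes with them, so the shares cannot be compared. Wild type 3 stood apart 4 times: Krt19 at 4.95, Cldn7 at 4.27, Timp2 at 7.40 and the biliary mean at 4.68, each above the other wild-type arrays. Wild type 2 was high for Cdh5 at 6.59 and low for Tek at 5.77. Wild type 1 was low for Fcgr2b at 9.42, and wild type 4 high for Gpr182 at 7.93. Among transgenic arrays, array 5 was high for Col1a1 at 5.50 and array 3 for Oit3 at 7.51. ACAT2 ASO 1 was high for Krt7 at 3.80 and for the endothelial mean at 7.22, and ACAT2 ASO 4 was low for Col1a2 at 3.11. Control ASO 4 was high for Cdh5 at 6.21.

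Ehf was the 1 marker gene of 44 called in the test of the difference itself, at -0.36 (limma adjusted p = 0.0452), against 1.07% of all genes. The call was lost under 23 of 27 alternative settings, and all its values in the ASO model lay below the low level.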

How the results depend on the processing

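Of 63 named results, 61 kept their sign under every alternative run. The exceptions were Epcam in the transgenic model, at 0.0040 with the mean of its probe sets, and Smad6 in the difference of effects, at 0.049 without wild type 2, ACAT2 ASO 1 and control ASO 4. The filter, the fit by model, the trended variance, the replicate block and every probe set by itself could not reverse a sign. They leave the difference of the main probe set unchanged. Other probe sets of opposite sign, given above, were not counted here. Same-numbered samples did not regularly deviate together (correlations from -0.48 to 0.47, the highest for number 3 of the ASO model), so the main fit used no pairing. These few correlations cannot settle whether the numbers pair samples. With the number as a replicate block 2, 18 and 12 genes were called for the transgenic, ASO and difference comparisons, in place of 39, 102 and 183, and 0 marker genes in each. Fitting each model by itself called 13 and 17 genes, and an adjusted p under 0.01 called 17, 26 and 28. Array weights called 465 for the ASO comparison and 369 for the difference. For the difference, centring called 112 and quantile normalization 102. Without the 3 arrays named above, 46 genes were called for the ASO comparison and 58 for the difference. Leaving out 1 array gave 20 to 58, 42 to 203 and 69 to 262. The call of Ehf in the difference was lost (0 marker genes) under every probe set by itself, the mean of probe sets, centring, quantile normalization, the replicate block, trended variance, without the 3 arrays and at 0.01, and leaving out 1 array gave 0 to 1. The biliary median in the ASO model was 0.12 over the 2 genes above the low level, and the endothelial median -0.065 without the 3 arrays. For dim genes signal over background limits what can be seen. The cause of these shifts was not tested.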
